A study of Arabidopsis thaliana with 24 samples.

Results

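RD29A, RD29B, RD20, RD22, KIN1, KIN2, TSPO, ERD1, LTP3 and LTP4 are genes of Arabidopsis thaliana whose transcripts are widely used as markers of drying leaves and of the hormone abscisic acid (ABA). They were taken by locus identifier from tables of gene counts for rosette leaves, and they are 10 of the 27664 genes in each table. All 10 passed the filter on low counts, which left 18841 genes. The leaves came from grf6 grf8 double mutant and wild-type (WT) plants that were 24 days old, with 12 days on plates followed by 12 days on soil. Each genotype was sampled at 0 h, 2 h and 4 h of dehydration, with 4 libraries in each of the 6 groups and 24 libraries in all. The alleles of the mutant and the accession of both genotypes are not given in the sources used here. The labels number the replicates without saying whether they came from separate plants, so p-values measure the spread between these libraries. No watered plants of the later times are among the libraries, so hours of drying cannot be told apart from hours of the day.

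A leaf that loses water accumulates ABA, whose receptors release SnRK2 kinases from inhibition, and these kinases activate the ABF family of transcription factors. ABF proteins bind the ABA-responsive element (ABRE) in promoters, and DREB and CBF proteins bind the dehydration-responsive element (DRE), a route that can act without ABA. RD29A is the textbook gene with several DRE copies and RD29B the textbook gene with several ABREs. GRF6 and GRF8 encode 14-3-3 proteins, which dock on phosphorylated partners, and the comparison of genotypes asks whether the marker genes differ where both are mutated.

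Total counts per library ran from 17365357 to 22380487. GRF6 averaged 307, 77.7 and 49.2 CPM (counts scaled to the library total after TMM adjustment; single and summed levels of marker genes of cell types and the cell cycle use the plain total) in grf6 grf8 at 0 h, 2 h and 4 h, against 1573, 734 and 597 CPM in WT. GRF8 averaged 83.0, 84.9 and 57.3 CPM in grf6 grf8, against 290.0, 122 and 106 CPM in WT. GRF6 libraries of the genotypes did not overlap at any time, while those of GRF8 did at 4 h, up to 78.7 CPM in grf6 grf8 and down to 68.0 CPM in WT. The labelled leaf tissue showed its markers: 4 mesophyll genes (RBCS1A, RBCS3B, LHCB1.3 and LHCB2.1) reached at least 480.2 CPM each in every library, the root gene CASP1 had 0 counts in all 24, and the root genes PHT1;1 and PIN2 had 0 counts in 20 and 15 of them. SCR, the remaining gene on the list of root markers, was present in every one of these leaf libraries at 4.25 to 20.2 CPM. At 4 h against 0 h its log2 fold change was -1.20 (edgeR adjusted p = 0.00106) in grf6 grf8 and -1.41 (edgeR adjusted p = 0.000256) in WT. At 4 h against 0 h, 3 of the 4 mesophyll genes fell in each genotype, and the part of SCR and these genes in the results was not tested. In bulk leaf RNA, fewer cells of a type and less RNA per cell cannot be told apart. The mean log2 CPM of 11 cell cycle genes stood apart in 5 libraries. The mutant had 3 of them, 0 h replicate 1 at 1.14, 4 h replicate 1 at 2.53 and 4 h replicate 2 at 2.01. WT had the other 2, 2 h replicate 4 at 0.967 and 4 h replicate 4 at 2.23. No remaining library exceeded 0.444. Of the 10 genes, grf6 grf8 0 h replicate 1 was the lowest library of its group in 8, grf6 grf8 4 h replicate 1 in 3, grf6 grf8 4 h replicate 2 in 7, WT 2 h replicate 4 in 9 and WT 4 h replicate 4 in 6. Among the other libraries this number was at most 5, in WT 0 h replicate 1 and grf6 grf8 2 h replicate 2. The 5 libraries also had the largest TMM factors, 1.11 to 1.28 against at most 1.06, and a larger factor lowers CPM. The part of the cell cycle genes and of the scaling in this was not tested. The summed level of the 11 genes reached 36.6, 22.7 and 89.0 CPM at most in grf6 grf8 at 0 h, 2 h and 4 h, against 21.2, 39.6 and 84.2 CPM in WT, and 4 of them had 0 counts in 1 library each. Of 4 floral genes tested, from 5 listed, 2 rose at 4 h against 0 h in grf6 grf8 and 1 in WT. Of all genes tested, 28.1% and 27.8% rose. Without those 5 libraries 0 of the floral genes rose, against 30.5% and 31.1% of all genes. The summed floral level was highest at 4 h in grf6 grf8, up to 19.9 CPM, and at 2 h in WT, up to 7.39 CPM. The part of the floral genes in the results was not tested. Values without those 5 libraries are given wherever they change a call.

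All 10 genes rose in both genotypes at 2 h and at 4 h of dehydration (edgeR quasi-likelihood test, adjusted p under 0.05). Of all genes tested, 23.2% rose at 2 h and 28.1% at 4 h in grf6 grf8, against 23.1% and 27.8% in WT. At 2 h the log2 fold changes of the 10 genes had a median of 4.39 in grf6 grf8 and 4.24 in WT, while the medians of all genes tested were 0.01 and 0.04. At 4 h the medians of the 10 were 5.79 in grf6 grf8 and 5.81 in WT, against 0.07 and 0.06 for all genes. The smallest increase was that of ERD1, 1.98-fold at 2 h in grf6 grf8 and 1.89-fold in WT. The 2 h and 4 h comparisons of a genotype share its 0 h libraries and are therefore not independent of each other.

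Between 2 h and 4 h, 4 of the 10 genes passed the test. RD29B, TSPO, LTP3 and LTP4 rose further in both genotypes, by 4.91-fold to 13.6-fold in grf6 grf8 and by 4.66-fold to 10.7-fold in WT. The other 6, RD29A, RD20, RD22, KIN1, KIN2 and ERD1, did not pass the test in either genotype. Of all genes tested, 6.34% rose over this step in grf6 grf8 and 2.57% in WT. Together the 10 genes took 0.327%, 1.50% and 1.77% of all counts in grf6 grf8 at 0 h, 2 h and 4 h, against 0.318%, 1.54% and 1.70% in WT.

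**Figure D1:**
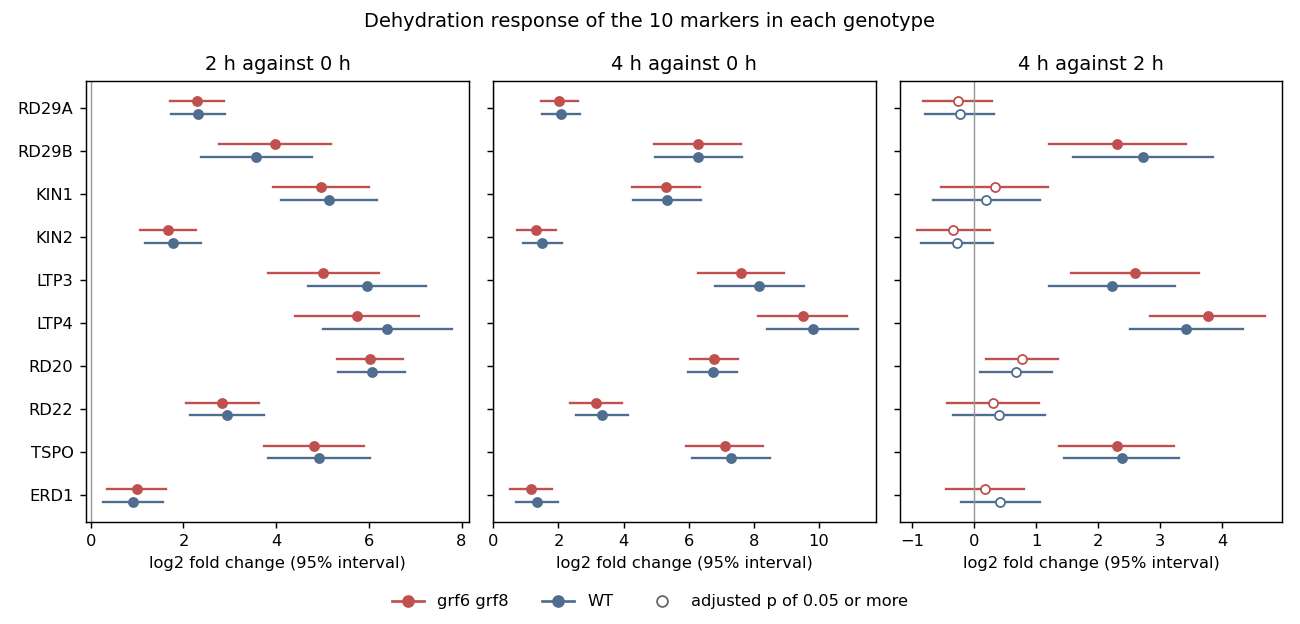
Log2 fold changes of the 10 genes, 1 panel for each pair of times, with 95% intervals, grf6 grf8 drawn above WT for each gene; open circles have an adjusted p of 0.05 or more. All points of the first 2 panels lie above 0, and in the third only RD29B, LTP3, LTP4 and TSPO are filled.

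RD29A (AT5G52310, chr5:21240717-21243644, plus strand) and RD29B (AT5G52300, chr5:21237021-21239531, plus strand) lie next to each other on chromosome 5 of TAIR10.1 with 1185 bases between them and encode hydrophilic proteins of unknown molecular function. Their coding sequences align with 56.6% identity, and no 50-base stretch of their transcripts is identical. The 300 bases before each annotated transcript start are printed here because the pair is the standard contrast between DRE and ABRE control. They were read from the TAIR10.1 genome of RefSeq (chr5:21240417-21240716 for RD29A and chr5:21236721-21237020 for RD29B, both on the plus strand). Capitals mark the DRE core, CCGAC or its reverse complement GTCGG, and the ABRE core, ACGTG or its reverse complement CACGT.
RD29A: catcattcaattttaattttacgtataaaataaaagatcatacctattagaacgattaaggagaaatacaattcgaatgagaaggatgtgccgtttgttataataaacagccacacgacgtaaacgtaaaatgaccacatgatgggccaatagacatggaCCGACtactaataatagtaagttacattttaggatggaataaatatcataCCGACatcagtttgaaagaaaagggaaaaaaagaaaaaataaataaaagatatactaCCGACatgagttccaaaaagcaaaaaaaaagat
RD29B: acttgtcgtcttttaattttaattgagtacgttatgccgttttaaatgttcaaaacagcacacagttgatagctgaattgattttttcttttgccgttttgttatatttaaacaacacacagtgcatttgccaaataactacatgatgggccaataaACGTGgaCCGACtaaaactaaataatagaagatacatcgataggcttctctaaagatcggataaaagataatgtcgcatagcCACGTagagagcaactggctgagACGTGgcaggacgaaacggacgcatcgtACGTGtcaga
RD29A held 3 DRE cores, whose first bases lay at -140, -90 and -33 from the start, and 0 ABRE cores. RD29B held 4 ABRE cores, at -143, -61, -38 and -10, and 1 DRE core at -136. Of 27443 promoters of the same length, searched on both strands, 25.6% held at least 1 ABRE core and 3.44% at least 3, while 13.9% held at least 1 DRE core and 0.277% at least 3. The 212 bases in RD29A and 184 in RD29B between the annotated start and the coding sequence were not searched. A count of 0 therefore holds for this window only, and not for the whole promoter. A match describes these letters and is not evidence of binding.

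RD29A was already well expressed before dehydration and stood at its highest mean at 2 h. In grf6 grf8 it had 648, 871, 1031 and 948 CPM at 0 h, 4987, 3461, 4659 and 4046 CPM at 2 h and 3311, 4194, 3392 and 3343 CPM at 4 h. In WT it had 556, 989, 1332 and 896 CPM at 0 h, 5995, 5345, 3257 and 4088 CPM at 2 h and 3205, 5120.0, 2686 and 4876 CPM at 4 h. Every dehydrated library was above every 0 h library, and the 2 h and 4 h ranges overlapped in both genotypes. The log2 fold change at 2 h against 0 h was 2.29 (SE 0.28, adjusted p = 1.66e-06) in grf6 grf8 and 2.31 (SE 0.28, adjusted p = 1.42e-06) in WT. At 4 h against 2 h it was -0.27 (95% interval -0.82 to 0.28) in grf6 grf8 and -0.23 (95% interval -0.79 to 0.32) in WT, and neither passed the test.

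RD29B was scarce at 0 h and kept rising. The grf6 grf8 libraries had 2.28, 5.51, 8.66 and 11.0 CPM at 0 h, 74.8, 101, 169 and 85.8 CPM at 2 h and 612, 194, 539.7 and 786 CPM at 4 h. The WT libraries had 3.86, 3.47, 6.70 and 5.93 CPM at 0 h, 87.2, 84.1, 50.6 and 15.6 CPM at 2 h and 397, 523, 505 and 139.9 CPM at 4 h. The 3 times did not overlap in either genotype, although grf6 grf8 4 h replicate 2 and WT 2 h and 4 h replicate 4, which are among the 5 libraries with raised cell cycle genes, were the lowest of their groups. Its log2 fold change at 4 h against 0 h was 6.28 (SE 0.64, adjusted p = 9.66e-08) in grf6 grf8 and 6.29 (SE 0.64, adjusted p = 1.05e-07) in WT. At 4 h against 2 h it was 2.31 (SE 0.53, adjusted p = 0.00761) in grf6 grf8 and 2.72 (SE 0.54, adjusted p = 0.00573) in WT. With only the groups compared in the fit, the WT value was 2.71 and no longer passed (adjusted p = 0.0974).

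The balance of the pair moved with time. On deposited FPKM, which is scaled to transcript length, RD29A stood 111 times above RD29B in grf6 grf8 at 0 h, 34.1 times at 2 h and 5.97 times at 4 h, as a ratio of group means. In WT the same FPKM ratios were 161, 69.3 and 9.39. The log2 ratio of RD29B over RD29A counts within a library averaged -7.19 ± 0.73, -5.37 ± 0.56 and -2.90 ± 1.05 in grf6 grf8 at 0 h, 2 h and 4 h, against -7.54 ± 0.45, -6.53 ± 1.00 and -3.46 ± 1.17 in WT (SD, n = 4 each). Averaged over both genotypes, it differed by 1.41 (p = 0.00367, adjusted p = 0.00551) for 2 h against 0 h, by 4.18 (p = 0.000408, adjusted p = 0.00122) for 4 h against 0 h and by 2.77 (p = 0.000408, adjusted p = 0.00122) for 4 h against 2 h in exact permutation tests. The tests were two-sided, exchanged times within each genotype and were adjusted over the 12 tests of this kind. Neither genotype was tested alone. The smallest p these time tests can give is 0.000408, from 4900 arrangements. WT 2 h replicate 4, at -8.03, lay within the WT 0 h range of -8.14 to -7.16. In grf6 grf8 the 0 h and 2 h ranges were apart. The ratio was 0.69 higher in grf6 grf8 than in WT over the 3 times, which missed the threshold (exact permutation test, p = 0.0586, adjusted p = 0.0781). Without the 5 libraries with raised cell cycle genes that difference was 0.62 and passed (adjusted p = 0.0107), and leaving out 1 library at a time it passed without WT 4 h replicate 3, grf6 grf8 0 h replicate 1 or grf6 grf8 4 h replicate 2 (adjusted p = 0.0449, 0.0334 and 0.0132).

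**Figure D2:**
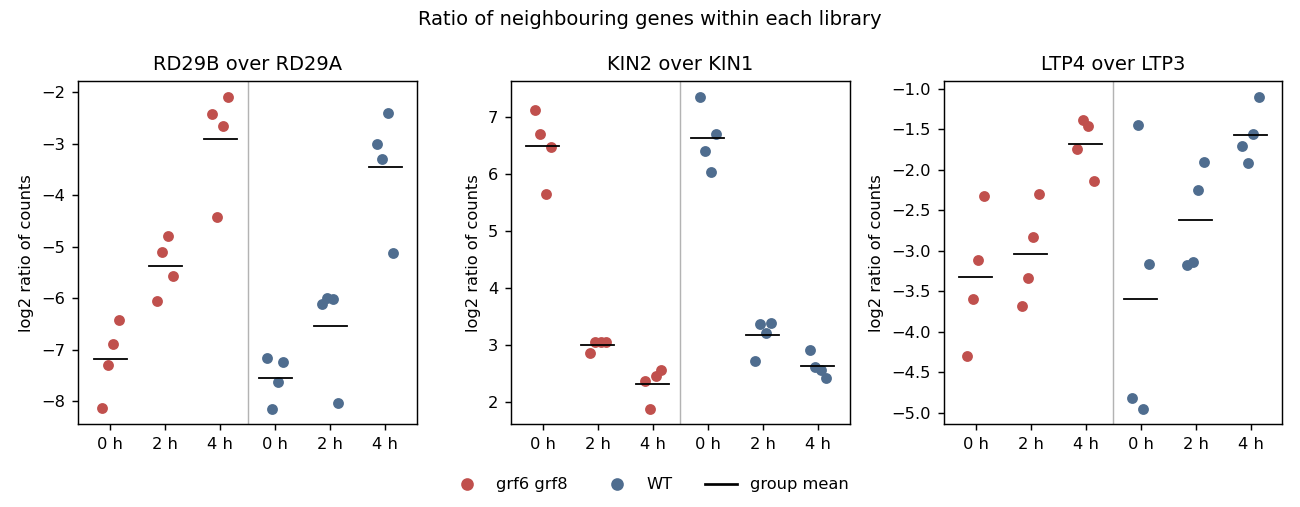
Log2 ratio of counts of neighbouring genes in each library (1 point per library, bar at the group mean), for grf6 grf8 at left and WT at right in each panel. In grf6 grf8 the mean of RD29B over RD29A was -2.90 at 4 h against -7.19 at 0 h, and that of KIN2 over KIN1 was 2.32 at 4 h against 6.49 at 0 h.

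KIN1 (AT5G15960, chr5:5209717-5210826, plus strand) and KIN2, also called COR6.6 (AT5G15970, chr5:5211719-5212743, plus strand), encode short hydrophilic proteins induced by cold, drought and ABA. They stand in tandem on chromosome 5 with 892 bases between them, and their coding sequences are 95.0% identical. Only 10 of 701 stretches of 50 bases in the KIN2 transcript occur in KIN1, and 10 of 780 the other way round, but how the authors split shared reads is not given in the sources used here, so the separate levels are uncertain to that extent. Their promoters, shown because the pair is so alike in sequence and so unlike in level, were read from TAIR10.1 on the plus strand (chr5:5209417-5209716 for KIN1 and chr5:5211419-5211718 for KIN2), with the ABRE core in capitals.
KIN1: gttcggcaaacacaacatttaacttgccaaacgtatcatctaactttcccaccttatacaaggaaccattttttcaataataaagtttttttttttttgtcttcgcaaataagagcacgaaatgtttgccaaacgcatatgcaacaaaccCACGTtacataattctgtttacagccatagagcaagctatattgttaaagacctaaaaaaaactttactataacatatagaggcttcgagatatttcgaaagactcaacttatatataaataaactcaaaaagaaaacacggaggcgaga
KIN2: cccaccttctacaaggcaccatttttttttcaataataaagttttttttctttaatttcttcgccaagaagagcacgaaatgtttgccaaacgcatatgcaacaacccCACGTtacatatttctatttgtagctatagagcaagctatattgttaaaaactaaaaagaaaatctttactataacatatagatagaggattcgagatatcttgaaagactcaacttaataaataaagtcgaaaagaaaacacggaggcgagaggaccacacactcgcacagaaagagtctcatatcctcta
Each window held 1 ABRE core, at -150 in KIN1 and at -192 in KIN2, and 0 DRE cores. A local alignment joined 264 columns of the 2 windows with 86.7% identity.

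KIN2 was abundant at every time. Mutant libraries (grf6 grf8) had 698, 1301, 1376 and 1457 CPM at 0 h, 4463, 3148, 4473 and 3194 CPM at 2 h and 2436, 2488, 3379.5 and 3786 CPM at 4 h. WT leaves had 779.6, 1065, 1395 and 1044 CPM at 0 h, 4421, 4113, 3488 and 2642 CPM at 2 h and 3019.9, 3515, 3938 and 1618 CPM at 4 h. All dehydrated libraries exceeded all 0 h libraries of their genotype, with WT 4 h replicate 4 the closest. KIN2's log2 fold change at 2 h against 0 h was 1.66 (SE 0.29, adjusted p = 0.000104) in grf6 grf8 and 1.78 (SE 0.29, adjusted p = 5.26e-05) in WT.

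KIN1 began far lower and rose more. KIN1 in grf6 grf8 measured 4.97, 12.5, 27.3 and 16.3 CPM at 0 h, 609, 378, 534 and 385 CPM at 2 h and 468, 674, 611 and 642 CPM at 4 h. KIN1 in WT measured 4.70, 12.5, 21.2 and 9.95 CPM at 0 h, 672, 396, 373 and 252 CPM at 2 h and 398, 570.0, 667 and 302 CPM at 4 h. The 0 h libraries lay far below all others, and replicate 1 was the lowest 0 h library in both genotypes. KIN1's log2 fold change at 2 h against 0 h was 4.96 (SE 0.49, adjusted p = 1.28e-07) in grf6 grf8 and 5.13 (SE 0.50, adjusted p = 9.68e-08) in WT. From 2 h to 4 h neither gene passed the test: the log2 change of KIN1 was 0.33 (95% interval -0.54 to 1.20) in grf6 grf8 and 0.19 (95% interval -0.67 to 1.06) in WT, and that of KIN2 was -0.34 (95% interval -0.92 to 0.25) and -0.28 (95% interval -0.86 to 0.31).

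KIN2 made up 98.8%, 89.0% and 83.2% of the counts of the pair in grf6 grf8 at 0 h, 2 h and 4 h, against 99.0%, 89.9% and 86.0% in WT. The log2 ratio of KIN2 over KIN1, averaged over both genotypes, differed by -3.47 (p = 0.000408, adjusted p = 0.00122) for 2 h against 0 h and by -0.62 (p = 0.000816, adjusted p = 0.00163) for 4 h against 2 h (exact permutation tests within genotype, two-sided, adjusted over 12). Between genotypes it differed by -0.21 (p = 0.202, adjusted p = 0.242) in the same exact test, which did not pass. With counts of the pair summed as 1 gene, the log2 fold change at 2 h against 0 h was 1.81 in grf6 grf8 and 1.92 in WT, close to that of KIN2 alone (edgeR adjusted p = 4.47e-05 and 2.42e-05).

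LTP3 (AT5G59320, chr5:23928954-23929816, plus strand) and LTP4 (AT5G59310, chr5:23924990-23925957, minus strand) encode lipid transfer proteins, small secreted proteins that bind lipids and are linked to the cuticle. They are neighbours on chromosome 5 on opposite strands, facing away from each other with 2996 bases between them, and their coding sequences are 84.5% identical with no shared 50-base stretch. Neither window of 300 bases held an ABRE or a DRE core.

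Both genes were close to absent at 0 h and rose at each step. LTP4 had 1, 4, 5 and 1 counts in the grf6 grf8 libraries at 0 h, against 1, 7, 0 and 0 counts in WT. At 2 h it had 3.88, 5.84, 7.22 and 15.9 CPM in grf6 grf8 and 5.55, 14.3, 11.5 and 5.21 CPM in WT. At 4 h it had 116, 86.7, 146 and 96.9 CPM in grf6 grf8 and 97.6, 105, 67.5 and 121 CPM in WT. The 3 times did not overlap in either genotype. The ratio of group mean CPM at 4 h over 0 h was 748 in grf6 grf8 and 934 in WT, but it rests on 11 and 8 counts at 0 h, 7 of the 8 in WT replicate 2, and the fitted log2 values of 9.51 and 9.81 depend on the small count added in the fit. Between 4 h and 2 h, where counts are ample, the log2 fold change was 3.76 (SE 0.45, adjusted p = 4.12e-05) in grf6 grf8 and 3.42 (SE 0.44, adjusted p = 0.00019) in WT.

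LTP3 ranged from 0.367 to 3.01 CPM at 0 h, 50.4 to 78.2 CPM at 2 h and 226 to 426 CPM at 4 h in grf6 grf8. In WT it ranged from 0.218 to 1.86 CPM at 0 h, 19.6 to 126 CPM at 2 h and 199.6 to 396 CPM at 4 h. The 3 times were again apart in both genotypes. The summed level of 4 epidermis markers (ATML1, PDF1, PDF2 and FDH) was 123 to 195, 212 to 336 and 193 to 319.8 CPM in grf6 grf8 at 0 h, 2 h and 4 h, against 104 to 150.3, 269.5 to 368 and 144 to 456 CPM in WT, with PDF1 at 0 counts in 4 libraries. At 2 h against 0 h, 1 of the 4 rose in each genotype, where 23.2% and 23.1% of all genes did. At 4 h against 0 h, 1 rose and 1 fell in grf6 grf8, and 2 rose and 1 fell in WT. Of all genes, 28.1% rose and 23.1% fell in grf6 grf8, and 27.8% and 22.2% in WT. Without the 5 libraries with raised cell cycle genes, 1 rose and 2 fell in each genotype. Of all genes, 30.5% then rose and 29.7% fell in grf6 grf8, and 31.1% and 31.8% in WT. The part of the epidermis markers in the LTP values was not tested. LTP3 differed at 4 h against 2 h by a log2 value of 2.59 (SE 0.49, adjusted p = 0.00213) in grf6 grf8 and 2.22 (SE 0.49, adjusted p = 0.011) in WT, and the WT value did not pass with only the groups compared in the fit (adjusted p = 0.115). LTP4 was 11.3% and 24.0% of the counts of the pair in grf6 grf8 at 2 h and 4 h, against 14.6% and 25.4% in WT. The log2 ratio of LTP4 over LTP3, averaged over both genotypes, differed by 1.20 (p = 0.000816, adjusted p = 0.00163) for 4 h against 2 h, and by 0.64 (p = 0.229, adjusted p = 0.25) for 2 h against 0 h, which did not pass (exact permutation tests within genotype, two-sided, adjusted over 12). The sign of the 2 h against 0 h value depends on the count added to the few reads at 0 h: with 2 added in place of 0.5 it was -0.21 (exact permutation test, adjusted p = 0.605).

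TSPO (AT2G47770, chr2:19568464-19569507, plus strand) encodes a membrane protein related to the animal translocator protein, made under water stress and removed by autophagy. TSPO in grf6 grf8 had 0.811, 2.06, 2.49 and 2.05 CPM at 0 h, 41.3, 72.2, 48.7 and 46.8 CPM at 2 h and 204, 196, 338 and 289.7 CPM at 4 h. TSPO in WT had 0.444, 0.534, 2.32 and 2.01 CPM at 0 h, 43.9, 44.4, 55.1 and 16.0 CPM at 2 h and 244, 322, 176 and 87.4 CPM at 4 h. No time overlapped another in either genotype, and replicate 4 was the lowest in WT at 2 h and at 4 h. TSPO differed at 4 h against 2 h by a log2 value of 2.30 (SE 0.44, adjusted p = 0.00234) in grf6 grf8 and 2.38 (SE 0.45, adjusted p = 0.00389) in WT, and the WT value did not pass with only the groups compared in the fit (adjusted p = 0.0749). Its upstream window held 2 DRE cores, at -293 and -125, and 0 ABRE cores, where 1.84% of all windows held at least 2 DRE cores.

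RD20 (AT2G33380, chr2:14144831-14146555, minus strand) encodes a caleosin, a calcium-binding protein of lipid droplets with peroxygenase activity. In grf6 grf8 it had 41.1, 59.3, 45.1 and 39.0 CPM at 0 h, 2874, 2659, 3023 and 3441 CPM at 2 h and 4673, 3864, 5953 and 5883 CPM at 4 h. In WT it had 33.0, 45.1, 53.2 and 35.0 CPM at 0 h, 3207, 2904, 3401 and 1562 CPM at 2 h and 5392, 5284, 4932 and 2115 CPM at 4 h. Most of the increase was present at 2 h, when its mean CPM was 58.9% of the 4 h mean in grf6 grf8 and 62.5% in WT. For RD20 the log2 fold change at 2 h against 0 h was 6.02 (SE 0.35, adjusted p = 1.55e-10) in grf6 grf8 and 6.06 (SE 0.35, adjusted p = 9.73e-11) in WT. From 2 h to 4 h the groups of grf6 grf8 did not overlap and those of WT did, through WT 4 h replicate 4, and the log2 changes of 0.76 (SE 0.28, adjusted p = 0.0771) and 0.68 (SE 0.28, adjusted p = 0.171) did not pass. Without the 5 libraries with raised cell cycle genes both passed, at 1.01 (adjusted p = 0.000967) in grf6 grf8 and 0.74 (adjusted p = 0.0103) in WT, and both also passed without WT 4 h replicate 4 alone (adjusted p = 0.0216 in grf6 grf8 and 0.0136 in WT). Its upstream window held 3 ABRE cores, of which a pair at -68 and -67 overlap on opposite strands.

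RD22 (AT5G25610, chr5:8914122-8916856, minus strand) encodes a protein with a BURP domain and is the classic target of MYC2 and MYB2 in the ABA response. RD22 ranged from 164 to 363 CPM at 0 h, 1621 to 2324 CPM at 2 h and 1725 to 3147 CPM at 4 h in grf6 grf8. In WT it ranged from 120.1 to 414 CPM at 0 h, 1205 to 2529 CPM at 2 h and 1538 to 3851 CPM at 4 h. Dehydrated libraries were all above 0 h libraries, while 2 h and 4 h overlapped. The log2 fold change at 4 h against 0 h was 3.15 (SE 0.39, adjusted p = 1.03e-06) in grf6 grf8 and 3.34 (SE 0.39, adjusted p = 6.16e-07) in WT. Its window held 2 copies of the MYC site (CACATG or its reverse complement CATGTG), at -72 and -62, where 1.77% of all windows held at least 2, and 1 ABRE core at -28.

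ERD1 (AT5G51070, chr5:20764096-20768764, plus strand) encodes a Clp-type ATPase of the chloroplast that rises in drought and in senescence, and it changed least. ERD1 in grf6 grf8 had 761, 957, 841 and 907 CPM at 0 h, 1599, 1810.1, 1579 and 1888 CPM at 2 h and 1478, 1097, 2442 and 2737 CPM at 4 h. ERD1 in WT had 892, 641, 904 and 843 CPM at 0 h, 1683, 1564, 2244 and 696 CPM at 2 h and 2381, 2393, 2369.7 and 1148 CPM at 4 h. WT 2 h replicate 4 fell within the WT 0 h range, and no other dehydrated group of the 10 genes overlapped its 0 h group. The log2 fold change at 2 h against 0 h was 0.99 (SE 0.31, adjusted p = 0.0132) in grf6 grf8 and 0.92 (SE 0.31, adjusted p = 0.0209) in WT. The WT value missed the threshold when WT 0 h replicate 2 or 4 or WT 2 h replicate 1 or 3 was left out (adjusted p = 0.0757, 0.0504, 0.0555 and 0.100). At 4 h against 2 h, 0.17 in grf6 grf8 did not pass, and without the 5 libraries with raised cell cycle genes it was 0.63 (adjusted p = 0.00758).

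Groups that did not overlap, with the later time higher, numbered 10 of the 10 genes at 2 h and 10 at 4 h against 0 h in grf6 grf8, where 25.1% and 24.3% of all genes did so, and 9 and 10 in WT, where 21.2% and 22.0% did. For 4 h against 2 h they numbered 5 in grf6 grf8 (8.7% of all genes) and 4 in WT (3.56%).

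**Figure D3:**
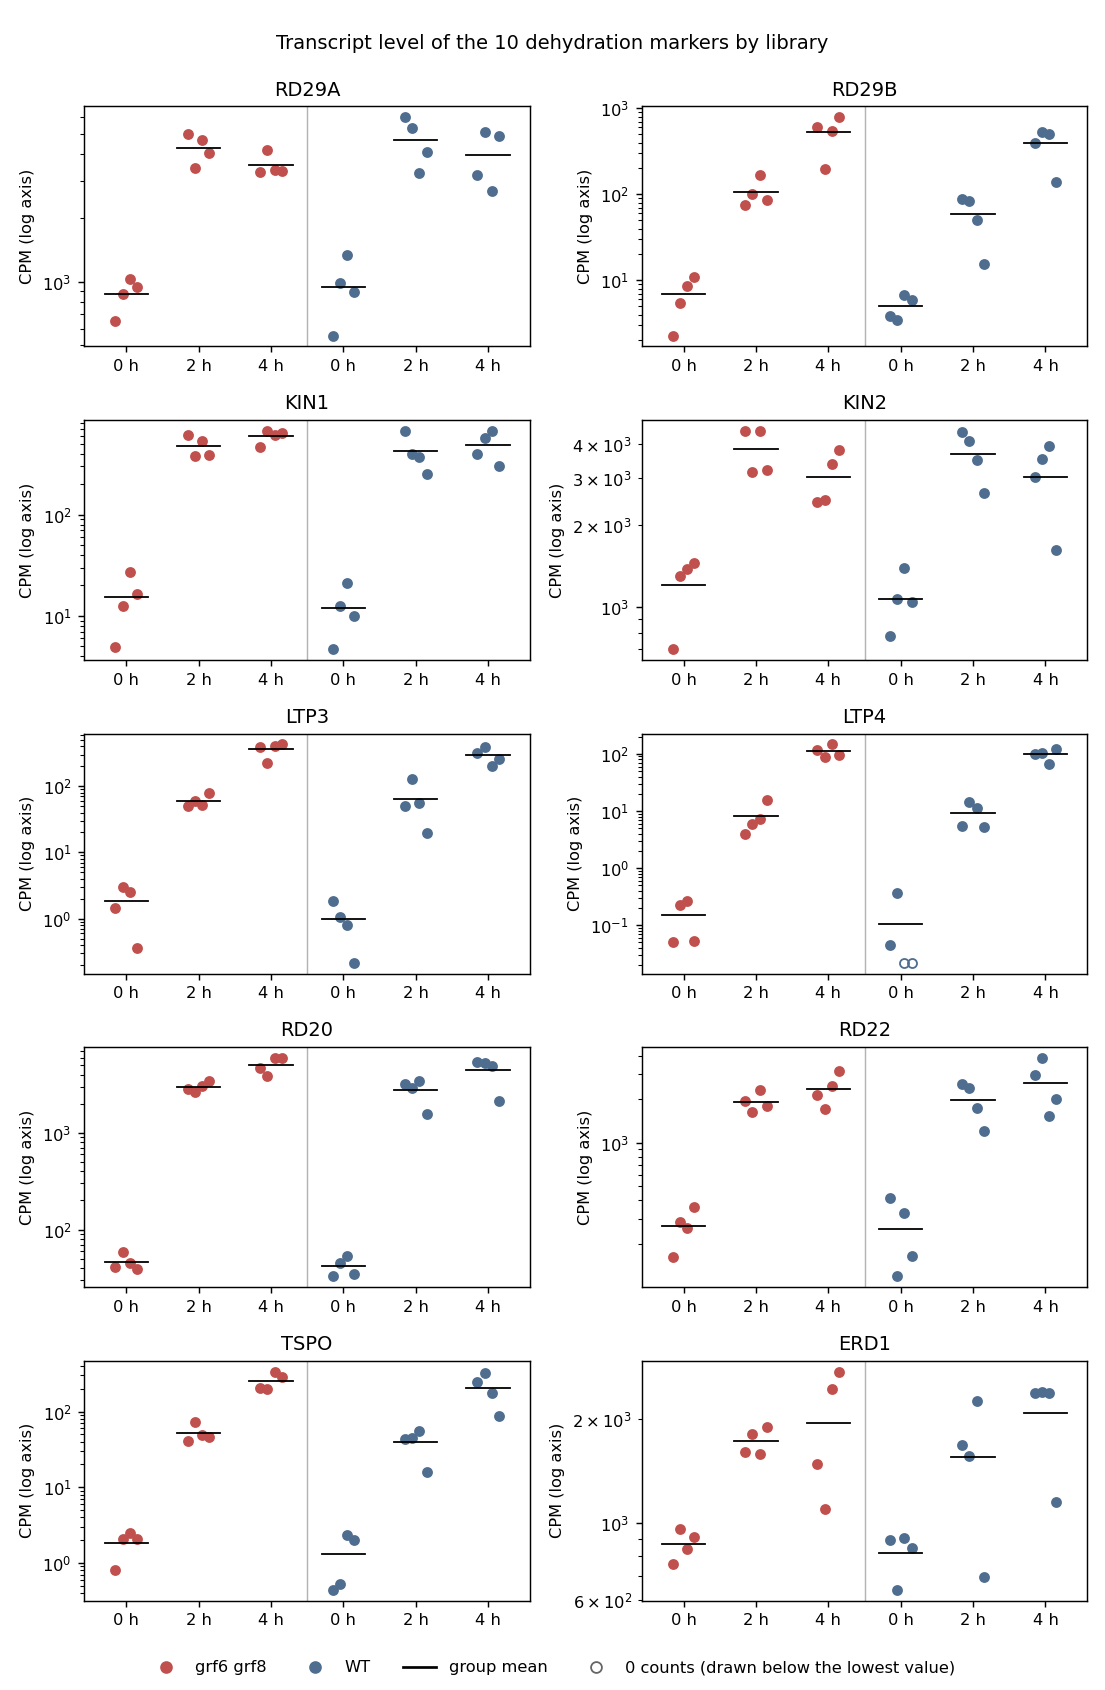
CPM of each gene in each library on log axes, grf6 grf8 at left and WT at right in each panel, with a bar at the group mean; open circles are libraries with 0 counts, drawn below the lowest value. RD29B, TSPO, LTP3 and LTP4 step up at both times, while RD29A, KIN1, KIN2 and RD22 stay within overlapping ranges from 2 h to 4 h.

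On deposited FPKM, KIN2 had the highest mean level of the 10 genes and LTP4 the lowest in all 6 groups. KIN2 averaged 2488 ± 579, 7755 ± 1687 and 6219 ± 502 FPKM in grf6 grf8 at 0 h, 2 h and 4 h, against 2247 ± 435, 7724 ± 1144 and 6013 ± 1374 FPKM in WT (SD, n = 4 each). LTP4 averaged 0.236 ± 0.178, 12.6 ± 8.21 and 178 ± 41.6 FPKM in grf6 grf8, and 0.172 ± 0.297, 14.6 ± 6.75 and 158 ± 62.1 FPKM in WT. At 0 h the order in both genotypes was KIN2, RD29A, ERD1, RD22, RD20, KIN1, RD29B, LTP3, TSPO and LTP4. RD20 moved to the second place at 2 h and 4 h, with 5261 ± 512 FPKM in grf6 grf8 and 4378 ± 1051 FPKM in WT at 4 h, and at 4 h its range overlapped that of KIN2 in both genotypes. RD29A, with 1451 ± 346 FPKM in grf6 grf8 and 1614 ± 685 FPKM in WT at 4 h, was the third at 2 h and the fourth at 4 h, where RD22 and KIN1 overlapped it in both genotypes. At 4 h, 6 of the 9 neighbouring pairs in the FPKM order overlapped in range in grf6 grf8 and 8 of 9 in WT, against 4 of 9 and 6 of 9 at 0 h. The genes share libraries, and within libraries 6 of the 9 neighbours stood in the same order in all 4 libraries in grf6 grf8 at 4 h and 3 of 9 in WT, against 6 and 5 at 0 h. KIN2 was above RD20 in all 4 libraries of each genotype at 4 h despite the overlap of their ranges.

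**Figure D4:**
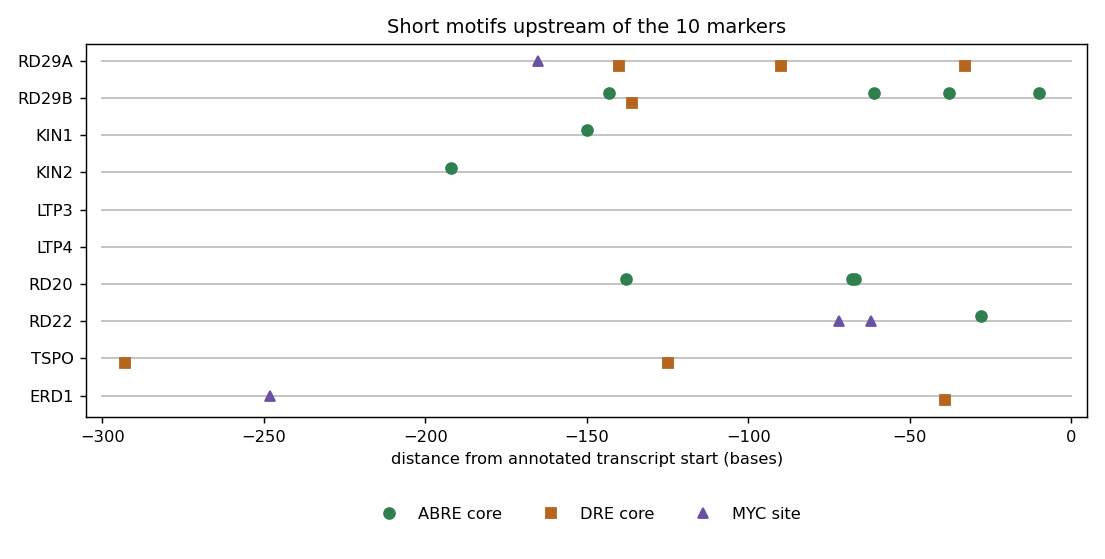
Positions of ABRE cores, DRE cores and MYC sites in the 300 bases before the annotated transcript start of each gene, by distance of the first base of the match from the start. RD29B and RD20 carry 4 and 3 ABRE cores, where those of RD20 at -68 and -67 overlap. RD29A carries 3 DRE cores, and LTP3 and LTP4 carry none of the 3 motifs.

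Of the 4 genes that rose from 2 h to 4 h in both genotypes, RD29B held 4 ABRE cores and 1 DRE core, TSPO 0 and 2, and LTP3 and LTP4 0 of each. Of the 6 that did not pass, RD20 held 3 ABRE cores (those at -68 and -67 overlap), KIN1, KIN2 and RD22 1 each, and RD29A and ERD1 0. RD29A held 3 DRE cores, ERD1 held 1 and the other 4 genes held 0. MYC sites were found in RD22 (2), RD29A (1) and ERD1 (1). These are counts in 10 windows and were not tested, and the split into 4 and 6 genes depends on the fit. In WT, RD29B, TSPO and LTP3 did not pass with only the groups compared. RD20 passed in both genotypes without WT 4 h replicate 4 or without the 5 libraries with raised cell cycle genes. ERD1 passed in grf6 grf8 without those 5 libraries. The 97 to 383 bases between each annotated transcript start and its coding sequence were not searched.

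No difference between genotypes passed for any of the 10 genes. The count was 0 of 10 at 0 h, 2 h and 4 h and averaged over times by edgeR and by DESeq2, and none had an unadjusted edgeR p under 0.05. Of all genes tested, edgeR called 0.0265%, 0.0212%, 0.0159% and 0.0849% in these comparisons, so a count of 0 among 10 is near the background. The differences of the 2 h and the 4 h response, grf6 grf8 minus WT, also gave 0 of 10 by both tools and 0 with an unadjusted edgeR p under 0.05, with 0.00531% of all genes called in each. At every time the libraries of the genotypes overlapped for all 10 genes, while grf6 grf8 was wholly above WT for 1.74%, 1.34% and 0.541% of all genes at 0 h, 2 h and 4 h and wholly below for 1.65%, 1.66% and 1.05%.

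The intervals show roughly what these libraries could have missed, except where counts at 0 h were few, as for LTP4. There the estimate depends on the small count added in the fit. RD29B had the smallest unadjusted p of the averaged comparison, 0.0629, with a log2 fold change of 0.59 (95% interval -0.03 to 1.21) for grf6 grf8 against WT. At 2 h its value was 0.86 (95% interval -0.20 to 1.92), from means of 108 ± 42.3 CPM in grf6 grf8 and 59.4 ± 33.5 CPM in WT (SD, n = 4 each). RD29A was -0.13 (95% interval -0.45 to 0.19) averaged over times, RD20 0.16 (95% interval -0.18 to 0.49) and ERD1 0.04 (95% interval -0.32 to 0.41). The widest interval at 0 h was that of LTP4, 0.50 (95% interval -1.81 to 2.80), and leaving out single libraries its value ran from 0.05 to 2.72, the highest without WT 0 h replicate 2, which holds 7 of the 8 WT counts. The 2 h response of LTP3 in grf6 grf8 minus that in WT was -0.94 (95% interval -2.51 to 0.63), from -1.46 to -0.34 when single libraries were left out, and that of LTP4 reached -2.87 without WT 0 h replicate 2. These p-values do not show that the genotypes act alike.

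**Figure D5:**
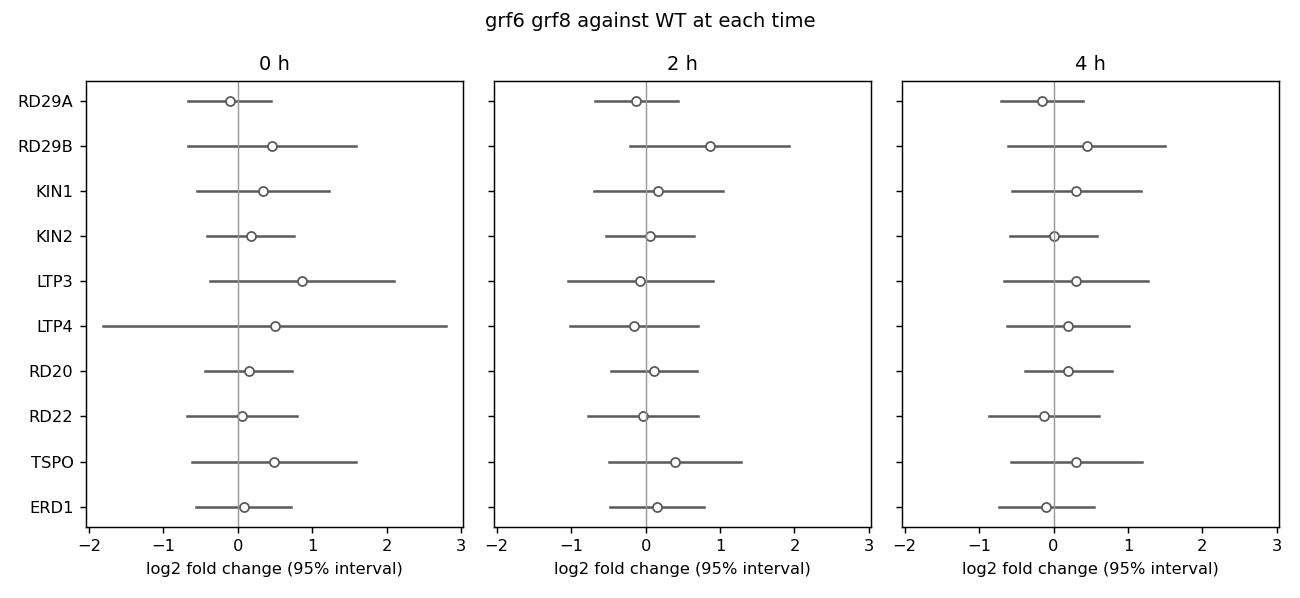
Log2 fold change of grf6 grf8 against WT for each gene at 0 h, 2 h and 4 h with 95% intervals. All 30 intervals include 0, and the largest values are 0.87 for LTP3 at 0 h and 0.86 for RD29B at 2 h.

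Genes with a known link to these markers were counted from lists. Of 5 ABRE-binding factors, 4 rose and 1 fell in grf6 grf8 at 4 h against 0 h, and 3 rose and 1 fell in WT. Over all genes, 28.1% rose and 23.1% fell in grf6 grf8, and 27.8% rose and 22.2% fell in WT. ABF2 had a log2 fold change of 3.66 (adjusted p = 3.08e-10) in grf6 grf8 and 4.07 (adjusted p = 8.64e-11) in WT. ABF3 had 3.26 (adjusted p = 8.92e-09) and 3.48 (adjusted p = 4.52e-09), and ABI5, which is best known from seeds, 4.21 (adjusted p = 1.53e-07) and 4.06 (adjusted p = 2.95e-07). Of 7 DRE-binding factors that passed the filter, from 8 listed, 4 rose and 2 fell in each genotype. DREB2A, the drought-linked member, had a mean level of 165 ± 59.6 CPM after 4 h, against 9.80 ± 2.31 CPM at the start, in grf6 grf8, a log2 fold change of 4.07 (adjusted p = 2.91e-08). In WT the levels were 137 ± 77.3 CPM after 4 h, against 8.51 ± 1.38 CPM at the start, a log2 fold change of 4.01 (adjusted p = 3.7e-08). CBF4 and DDF1 also rose but stayed low, at 0.976 ± 0.244 and 1.10 ± 0.646 CPM at 4 h in grf6 grf8 and 1.08 ± 0.578 and 2.63 ± 1.27 CPM in WT, with CBF4 at 0 counts in all 4 WT libraries at 0 h.

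The factors known to act at the RD22, ERD1 and LTP3 promoters (MYC2, MYB2, ANAC019, ANAC055, RD26, ZFHD1 and MYB96) rose in 6 of 7 cases in grf6 grf8 at 4 h and in 7 of 7 in WT, and 0 fell. ANAC019, which binds the ERD1 promoter, rose by 5.17 (adjusted p = 1.28e-09) on the log2 scale in grf6 grf8 and 5.27 (adjusted p = 1.11e-09) in WT, and ANAC055 by 3.15 (adjusted p = 1.52e-07) and 3.57 (adjusted p = 4.03e-08). ZFHD1, which binds the same promoter, was called in both genotypes but averaged 0.807 ± 0.270 CPM at 4 h in grf6 grf8 and 1.52 ± 1.96 CPM in WT. Whether a list differed between grf6 grf8 and WT in its counts was not tested, and 0 of the genes of these lists were called between genotypes at any time.

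Among 15 further genes named for dehydration or cold (RD, ERD and COR), 8 rose and 3 fell in grf6 grf8 at 4 h, and 7 rose and 2 fell in WT. PIP2;3 (RD28), an aquaporin, rose by 3.77 (adjusted p = 3.89e-08) in grf6 grf8 and 4.81 (adjusted p = 3.14e-09) in WT, and GSTU17 (ERD9), a glutathione transferase, by 4.48 (adjusted p = 1.89e-07) and 3.64 (adjusted p = 1.75e-06). PRODH1 (ERD5), which degrades proline, fell, with a log2 fold change of -4.32 (adjusted p = 2.17e-06) in grf6 grf8 and -2.71 (adjusted p = 0.000206) in WT. Of 5 lipid transfer protein relatives that passed the filter, from 10 listed, 3 rose and 2 fell in grf6 grf8 and 3 rose and 0 fell in WT, with LTP2 at 4.07 (adjusted p = 1.1e-06) and 3.76 (adjusted p = 2.74e-06) and LTP1 at 1.49 (adjusted p = 1.84e-05) and 1.86 (adjusted p = 1.51e-06). LTP6 was also called as higher, but its spread was wide, with 13.1 ± 14.9 CPM at 4 h in grf6 grf8 and 5.74 ± 11.0 CPM in WT. The single caleosin relative tested, CLO4, of 6 listed, did not pass, with a log2 fold change of 0.12 (adjusted p = 0.766) in grf6 grf8 and 0.56 (adjusted p = 0.135) in WT. Of 3 tested BURP relatives of RD22, from 4 listed, USPL1 fell in grf6 grf8 from a low level, 0.0253 ± 0.0505 CPM at 4 h against 1.15 ± 0.178 CPM at 0 h, and in WT none passed, with 0.132 ± 0.265 CPM against 0.651 ± 0.352 CPM for USPL1 (adjusted p = 0.0881). Of 5 HSP100 and Clp relatives of ERD1, 1 rose in each genotype, CLPB3, at 1.18 (adjusted p = 5.02e-06) and 1.31 (adjusted p = 1.52e-06).

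Without the 5 libraries with raised cell cycle genes, 30.5% of all genes tested rose and 29.7% fell at 4 h against 0 h in grf6 grf8, and 31.1% rose and 31.8% fell in WT. The list counts were then 4 rising and 1 falling of the ABRE-binding factors in each genotype, and 8 rising with 3 falling in grf6 grf8 and 8 with 4 in WT for the RD, ERD and COR genes. For the lipid transfer protein relatives they were 2 rising and 1 falling in grf6 grf8 and 2 and 0 in WT, for the BURP relatives 0 and 1 in each genotype, and for the HSP100 and Clp relatives 2 and 2 in each genotype. The counts of the DRE-binding factors, the promoter factors and the caleosin relative were as before.

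Over the 24 libraries, the genes whose log2 CPM followed each marker most closely were found by Pearson correlation among 12259 genes. These values are a description, since all libraries share the large change with dehydration. RD29B was followed by RAB18 (r = 0.983), a dehydrin, and HSFA6B (0.980), a heat shock factor. RD20 was followed by MAPKKK18 (0.997), a kinase of the ABA pathway, and HB-7 (0.996), a homeodomain factor induced by ABA. KIN1 was followed by PUB19 (0.988), a ubiquitin ligase, and AT1G16850 (0.986), and KIN2 by ERD10 (0.967), a dehydrin, and UGT84A3 (0.965). RD22 was nearest to CER3 (0.987), of cuticular wax synthesis, and KCS3 (0.979), and RD29A to KCS5 (0.965), also of wax synthesis, and G3Pp4 (0.961). TSPO was nearest to PP2-B11 (0.990) and AT2G41190 (0.988), and ERD1 to AT5G10650 (0.990) and PPH (0.981), a chlorophyll breakdown enzyme. LTP3 was nearest to AT3G12510 (0.980) and AT5G50360 (0.979), and LTP4 to AT2G37870 (0.983) and AT3G57010 (0.982). Among the 10 genes themselves the lowest correlation was 0.66, between RD29A and ERD1, and that of RD29A with RD29B was 0.80.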

How the data were processed

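The 24 deposited tables list 27664 genes, 248 of them with assembly names, holding expected counts that the authors estimated and deposited as whole numbers, beside FPKM values as computed by the authors. Build TAIR10 and the tools RSEM, HISAT2, StringTie 1.3.1, edgeR, DESeq2, Bowtie2 2.2.8 and fastp 0.18.0 are listed, with no role or order, in the submitters' processing notes. Counts were fitted with edgeR 4.0.16 in R 4.3.3: filterByExpr on the 6 groups left 18841 genes, TMM factors ran from 0.843 to 1.28, and 1 model with a mean per group was tested by quasi-likelihood, two-sided, with Benjamini-Hochberg adjustment over all genes tested and a call at an adjusted p under 0.05. CPM use TMM-scaled totals, except summed or single marker levels, which use plain totals. Depth was 17365357 to 22380487 counts. FPKM served only to compare levels between genes. Ratios of neighbouring genes used counts plus 0.5 and exact permutation within genotype or within time. Coordinates and sequences are from RefSeq TAIR10.1. The members and gene lists were chosen with earlier results of these data known. Named list genes are up to 3 per list with the largest absolute log2 fold change at 4 h against 0 h in WT, and for each member the 2 best correlated genes among those with a mean of at least 10 CPM in a group. Alternatives were another scaling, DESeq2 1.42.0, other filters, a replicate block, only the groups compared, summed neighbours, other counts added to ratios, and leaving out single or 5 libraries. The edgeR procedure was run on simulated counts for WT 4 h against 0 h only, drawn with the dispersions of the fit itself. The permutation tests and the genotype comparisons were not simulated.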

Additional observations from a re-analysis of the deposited data

Results flagged for a closer look

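A library lay far from the other 3 of its group in 4 of 60 combinations of gene and group, where chance alone gives about 1 in 20. The distance was judged on CPM after TMM scaling only. RD29A had 4190 CPM in grf6 grf8 4 h replicate 2, against 3311 to 3392 CPM in the other 3 libraries. Before scaling, RD29A had 87053 counts there, against 65503, 57914 and 52112 counts in replicates 1, 3 and 4, which are more evenly spread. RD20 had 2120 CPM in WT 4 h replicate 4, against 4932 to 5392 CPM. ERD1 had 1150 CPM in WT 4 h replicate 4, against 2370.0 to 2393 CPM. LTP4 had 0.374 CPM in WT 0 h replicate 2, against 0 to 0.0444 CPM, which is 7 counts against 0 or 1. The libraries flagged for RD29A, RD20 and ERD1 are among the 5 with raised cell cycle genes, whose part in these values was not tested.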

How the results depend on the processing

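No called value turned its direction under any alternative. Of the counts of genes called, 370 of 371 stayed within 1.5 times; the exception was 4 h against 2 h in WT, where the count was 1 with only the groups compared, a fit with fewer libraries, and 4 to 5 when single libraries were left out. RD20 passed for 4 h against 2 h in grf6 grf8 with DESeq2 (adjusted p = 0.0305) and with the stricter filter (0.0355), and without WT 4 h replicate 4 it passed in grf6 grf8 (0.0216) and in WT (0.0136); the cause was not tested. The difference between genotypes of RD29B over RD29A passed at 0.62 without the 5 libraries and ranged from 0.51 to 0.86 when single libraries were left out. The replicate numbers did not pair the libraries: deviations from group means of same-numbered libraries correlated from -0.80 to 0.68 (median -0.01 over 60 pairs), and 8 of 24 libraries correlated best with their own number. With the replicate block no count of the 10 genes moved, and KIN2 over KIN1 between genotypes, -0.21, passed (adjusted p = 0.0488). Depth limits LTP4 most, with 11 counts at 0 h in grf6 grf8 and 8 in WT.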
